A study of Mus musculus with 8 samples.

Results

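Interferons induce a set of antiviral and antimicrobial genes. The 47 genes described here are members of that set, chosen by name from 23100 loci in the deposited gene table, and every row whose gene name matched a member was taken. They fall into 33 type I response members and 14 GTPases, which are the guanylate-binding proteins (GBPs) and the immunity-related GTPases (IRGs). The table lists 46 of the 47 members in 47 rows. Tgtp1 has no row, and Tgtp2 has more than one. Cuffdiff, the program the authors used for the comparison, tested 44 of these rows, and it did not test Mx1, Oas3 and Zbp1, which were below 1 FPKM in both genotypes.

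The RNA came from the cardiac ventricles of 4 double knockout (DKO) and 4 control (Ctrl) mice aged 4.5 months. DKO mice were Sox5fl/fl, Sox6fl/fl and positive for aMHC-Cre, and Ctrl mice were Sox5fl/fl, Sox6fl/fl and negative for it, so loxP-flanked alleles of both Sox genes are shared by all 8 animals. The aMHC promoter drives Cre in cardiomyocytes, and other cells of the ventricle keep both genes. The sample labels give no operation, infection or interferon treatment. Because Ctrl mice lack Cre, an effect of Cre and one of the deleted genes cannot be told apart. Sox6 was at 1.69 FPKM in DKO and 3.39 FPKM in Ctrl, while Sox5 was at 0.497 and 0.369 FPKM and was not tested.

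Every level below is the authors' FPKM, fragments scaled by transcript length and by library size, given once per genotype for the pooled animals, so no value carries an error per animal. A gene is called where the q-value of the authors' Cuffdiff test, adjusted over 12133 tested genes, is at most 0.05. Log2 ratios are DKO over Ctrl, so a negative one means lower in DKO.

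Type I interferons signal through the receptor chains Ifnar1 and Ifnar2 to a complex that holds Stat2 and Irf9 and binds the interferon-stimulated response element (ISRE) before genes such as Ifit1, Mx1 and Isg15. Interferon gamma signals through Ifngr1 and Ifngr2, acts on genes with a gamma-activated site (GAS), and induces the transcription factor Irf1. In mice the GBPs and IRGs are strongly induced by interferon gamma and assemble on the vacuoles of intracellular microbes. Many of these genes answer to either kind of interferon.

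Several GTPases were lower in DKO ventricles, while no type I response member was called lower. All 14 tested GTPase rows had a log2 ratio below 0, and 5 of them, those of Gbp4, Gbp7, Iigp1, Irgm2 and Tgtp2, were called lower. None was called higher. Over all tested genes, 3.06% were called lower and 7.36% in either direction, and 51.1% had a ratio below 0 (48.9% above). Of the 30 tested type I response members, 1 was called higher, Ifit2, and none lower, where 4.3% of all tested genes were called higher. The median log2 ratio was -0.28 for the GTPase rows (0.823-fold), 0.022 for the type I response members (1.02-fold) and -0.00418 for all tested genes. No type I response member had a ratio under the GTPase median, and 27 of the 30 lay above the highest GTPase ratio. Most tested genes also lay there: Ifi47, the highest GTPase row, ranked 2203 from the lowest ratio and 9914 from the highest. Few tested genes lay under the GTPase median, since Igtp and Gbp9, on either side of it, ranked 667 and 850 from the lowest. Genes are not replicates, and the difference between these classes was not tested.

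**Figure D1:**
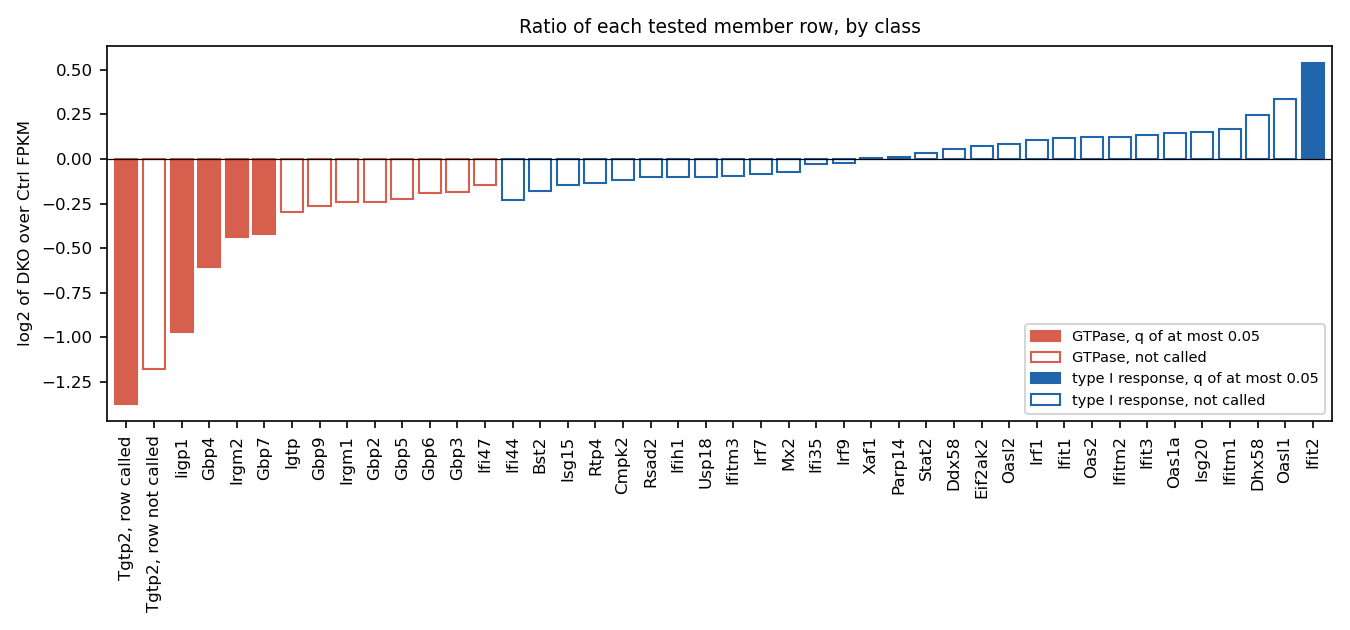
Log2 ratio of DKO over Ctrl FPKM for each of the 44 tested rows, GTPases on the left and type I response members on the right, filled where the q-value is at most 0.05. The GTPase bars all point down, from -1.37 for Tgtp2 to -0.15 for Ifi47, and the type I bars run from -0.23 for Ifi44 to 0.54 for Ifit2.

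Among the members, the largest fall in FPKM was that of Iigp1, an effector IRG that coats the vacuoles of parasites. It was at 13.4 FPKM in DKO and 26.3 FPKM in Ctrl. That made it the IRG with the highest level in Ctrl, while in DKO it stood just under Irgm1. It was 1.96-fold lower (log2 ratio -0.97; q = 0.00158, the authors' deposited table). Iigp1 lies on chromosome 18 at 60535683 to 60552283 in mm9. Its isoform of 2940 bases, at 12.9 FPKM in DKO and 25.5 FPKM in Ctrl, was called lower as well.

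Tgtp2, another effector IRG, had the lowest ratios among the members at levels near 1 FPKM. One row, on chromosome 11 at 48798831 to 48805756 in mm9, was at 0.386 FPKM in DKO and 1.00 FPKM in Ctrl. This is 2.59-fold lower (q = 0.00158, the authors' deposited table). The other row, in a locus at 48851162 to 48948889 that also holds Ifi47, was at 0.745 FPKM in DKO and 1.68 FPKM in Ctrl. At 2.26-fold lower it was not called (q = 0.213, the authors' deposited table). With 1 FPKM added to both groups, the log2 ratios of these rows are -0.53 and -0.62, against -1.37 and -1.18 without.

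Tgtp1 and Tgtp2 are near-identical copies, and their single values are uncertain. In the GENCODE M21 transcripts, their longest coding transcripts matched at 2804 of 2810 aligned bases. Of the 50-base windows of Tgtp2, 90.6% also occur in a transcript of another gene. Along chromosome 11 the RefSeq start sites (build GRCm38.p6) have the order Irgm1, Tgtp1 and Tgtp2. In the deposited mm9 loci the called row lies between Irgm1 and the locus that holds the other row and Ifi47, which is the place of Tgtp1 in that order. The deposited table names both rows Tgtp2, and positions were not converted between the builds. Without Tgtp2 the GTPases still had 4 called genes and a median of -0.25.

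The remaining IRGs had ratios closer to 0, and 1 of them was called. Irgm2, a regulatory IRG, was at 7.16 FPKM in DKO and 9.67 FPKM in Ctrl, 1.35-fold lower (q = 0.0102, the authors' deposited table). Its neighbour Igtp, also a regulatory IRG, was at 8.96 and 11.0 FPKM, and Irgm1, the third of this kind, at 13.8 and 16.3 FPKM. Neither was called, with q-values of 0.159 and 0.243 in the authors' deposited table. Ifi47, an effector IRG, was closest to equal among the GTPases, at 2.77 FPKM in DKO and 3.07 FPKM in Ctrl. Its row also names Olfr56, and the isoform of Ifi47 alone was at 2.55 and 2.52 FPKM, which turns its log2 ratio to 0.017. Cuffdiff gave no test for that isoform. The statement that every GTPase ratio was below 0 thus holds for gene rows and not for this isoform. It also fails for the Irgm1 isoform of 2227 bases and the Irgm1 coding sequence. Both were at 3.81 FPKM in DKO and 3.12 FPKM in Ctrl and were not called.

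Of the 7 GBPs, 2 were called, and the FPKM of the other 5, not called, lay 1.14-fold to 1.20-fold under that of Ctrl. Gbp4 was at 5.49 FPKM in DKO and 8.35 FPKM in Ctrl, 1.52-fold lower (q = 0.00158, the authors' deposited table). Gbp7 was at 5.41 FPKM in DKO and 7.24 FPKM in Ctrl, 1.34-fold lower (q = 0.00517, the authors' deposited table). The GBP with the highest level, Gbp2, was at 9.05 and 10.7 FPKM and was not called. Gbp9 (8.19 and 9.83 FPKM), Gbp3 (5.83 and 6.63 FPKM), Gbp5 (4.94 and 5.77 FPKM) and Gbp6 (3.80 and 4.34 FPKM) were not called either. Gbp5 is known for promoting inflammasome assembly. Gbp6 shares 90.2% of its 50-base windows with transcripts of Gm43302 and is uncertain for that reason.

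Before adjustment, 10 of the 14 GTPase rows had p-values under 0.05 in the authors' deposited table, all lower in DKO, where 7.76% of all tested genes did. Of the 30 type I response members, 1 had such a p-value, that of Ifit2, and it was higher in DKO, where 8.78% of all tested genes were.

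**Figure D2:**
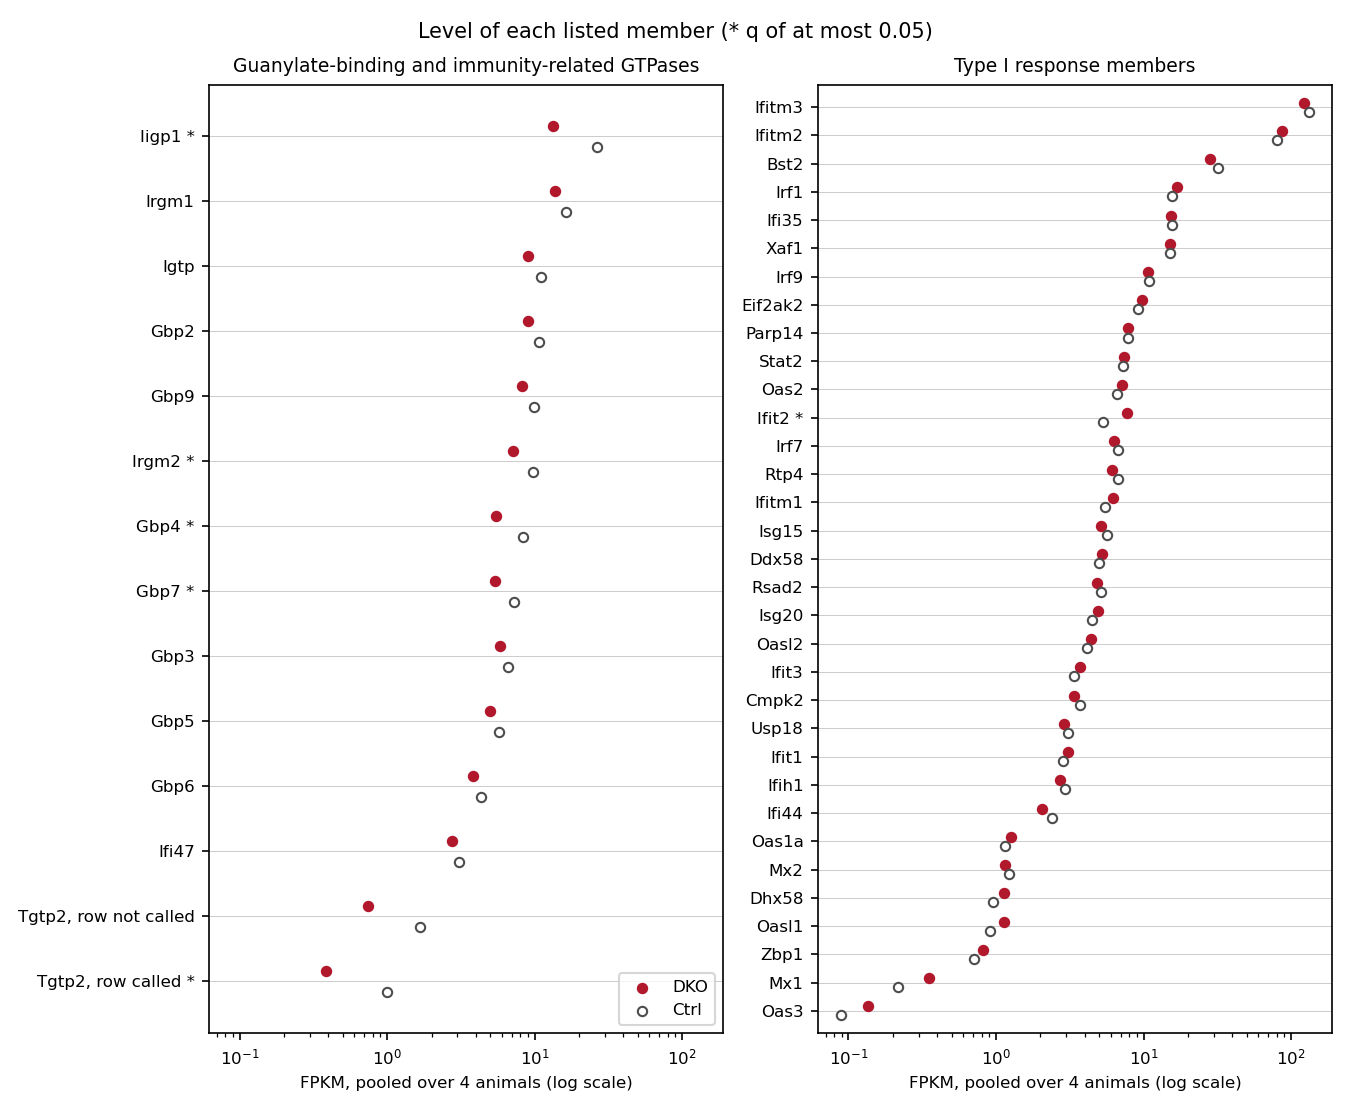
FPKM of each listed member on a log scale, with DKO as filled points above Ctrl as open points, sorted by level within each class. In every GTPase row the DKO point lies left of the Ctrl point, while among the type I response members it lies on either side, with Mx1, Oas3 and Ifit2 at the widest gaps, each higher in DKO.

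The called GTPases do not share one stretch of the genome. In mm9, Gbp5, Gbp7, Gbp3 and Gbp2 stand in a row on chromosome 3 between 142159898 and 142300972, and only Gbp7 of these was called. Gbp9, Gbp4 and Gbp6 stand on chromosome 5 between 105507413 and 105722718, with Gbp4 called. Irgm1, the Tgtp2 rows and Ifi47 lie on chromosome 11 between 48678751 and 48948889, and Igtp and Irgm2 lie at 58013058 to 58036285 on the same chromosome. Within 250 kb of a GTPase locus, 29 tested genes are not members. Of these, 2 were called lower, Ccbl2 and 2010002N04Rik, and none higher, where 3.06% of all tested genes were lower and 4.3% higher. The median log2 ratio of the 29 was -0.03. Ccbl2, next to the GBPs of chromosome 3, was at 15.5 FPKM in DKO and 19.8 FPKM in Ctrl. 2010002N04Rik, near Iigp1, was at 5.66 FPKM in DKO and 8.08 FPKM in Ctrl.

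The promoters of several GTPases hold both interferon elements, and the stretches below are shown because they carry the letters of both elements. The 250 bases before each RefSeq start site (build GRCm38.p6) were searched on both strands for an ISRE core, GAAANNGAAA, and for a GAS, TTCNNNGAA. Of the 47 members, 35 have an entry, among them 10 GTPases and 25 type I response members. The GTPases with no entry are Iigp1, Gbp4, Gbp6 and Gbp9, so the called Iigp1 and Gbp4 are outside the shares below. The ISRE core was found in 9 of the 10 GTPases and 9 of the 25 type I response members, against 3.46% of 27025 genes. The GAS was found in 6 of the 10 and 6 of the 25, against 8.13% of all genes. Both occurred in 6 GTPases, Gbp5, Gbp7, Igtp, Irgm2, Tgtp1 and Tgtp2, and in 2 type I response members, Oas1a and Bst2, against 0.400% of all genes. Ifi47 held neither in this window.

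In 4 of the IRG promoters the GAS stands directly before the ISRE core with a pair of bases between them. This joint arrangement, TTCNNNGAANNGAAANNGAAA, was searched for after the sequences had been seen. It occurs in 5 of 27025 genes, which are Irgm2, Igtp, Tgtp1, Tgtp2 and Gm12185, all on chromosome 11. The stretches read 5′ to 3′ on the strand of the gene, with 20 bases on either side of the elements and capitals for the GAS and the ISRE core. They are Irgm2 at chr11:58214882-58214942 (plus strand), Igtp at chr11:58199491-58199551 (plus strand), Tgtp1 at chr11:48992294-48992354 (minus strand) and Tgtp2 at chr11:49064253-49064313 (minus strand).
Irgm2: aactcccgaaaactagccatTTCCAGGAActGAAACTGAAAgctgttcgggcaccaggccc
Igtp: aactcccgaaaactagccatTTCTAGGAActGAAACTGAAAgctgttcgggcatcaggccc
Tgtp1: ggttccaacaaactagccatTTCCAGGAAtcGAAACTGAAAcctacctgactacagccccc
Tgtp2: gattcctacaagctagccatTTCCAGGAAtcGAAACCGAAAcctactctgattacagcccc

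The Irgm2 and Igtp stretches are identical at 59 of 61 bases, and those of Tgtp1 and Tgtp2 at 47. Irgm2 matches Tgtp1 at 41 and Tgtp2 at 43, and Igtp matches them at 39 and 42. The likeness runs past the capitals into the flanks, so these genes are not independent examples of the arrangement. The log2 ratios of the closest pair were -0.43 for Irgm2 (called) and -0.30 for Igtp (not called), and the difference between them was not tested.

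Other members hold the elements in other arrangements, shown for the called Gbp7, for Irgm1, and for type I response members that were not called. Capitals mark the same elements, and an ISRE core on the opposite strand reads TTTCNNTTTC. Gbp7 is from chr3:142530210-142530312 (plus strand), Irgm1 from chr11:48871421-48871470 (minus strand), Ifit1 from chr19:34640765-34640833 (plus strand), Ifit3 from chr19:34583353-34583436 (plus strand) and Isg15 from chr4:156200855-156200916 (minus strand).
Gbp7: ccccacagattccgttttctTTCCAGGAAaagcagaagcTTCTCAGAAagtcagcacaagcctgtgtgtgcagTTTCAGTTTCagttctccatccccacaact
Irgm1: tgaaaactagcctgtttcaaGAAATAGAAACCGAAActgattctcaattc
Ifit1: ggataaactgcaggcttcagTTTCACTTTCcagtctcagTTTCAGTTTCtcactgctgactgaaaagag
Ifit3: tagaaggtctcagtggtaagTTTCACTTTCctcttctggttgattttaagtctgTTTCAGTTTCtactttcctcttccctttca
Isg15: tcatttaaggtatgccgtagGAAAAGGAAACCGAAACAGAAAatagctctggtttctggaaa

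Gbp7 carries a GAS at 2 places and an ISRE core nearer to the start site, while the printed stretches of Ifit1, Ifit3, Isg15 and Irgm1 carry ISRE cores and no GAS. A match of letters is a description and says nothing of whether a factor was bound in these hearts.

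Ifit2, a tetratricopeptide protein that acts against viral RNA, was the type I response member that rose. It was at 7.70 FPKM in DKO and 5.30 FPKM in Ctrl, 1.45-fold higher (log2 ratio 0.54; q = 0.00158, the authors' deposited table). Its neighbours on chromosome 19 in mm9 were not called. Ifit3 was at 3.72 FPKM in DKO and 3.38 FPKM in Ctrl, and Ifit1 at 3.08 and 2.84 FPKM, with q-values of 0.834 and 0.856 in the authors' deposited table. Ifit3 shares 51.2% of its 50-base windows with Ifit3b, so its value is less certain than that of Ifit2.

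The RefSeq table gives more than one start for Ifit2. No ISRE core matched before any of them. Before the first start, at chr19:34550444-34550693 on the plus strand, a GAS, in capitals, begins 241 bases upstream. The stretch is shown because Ifit2 is the type I response member that was called.
Ifit2: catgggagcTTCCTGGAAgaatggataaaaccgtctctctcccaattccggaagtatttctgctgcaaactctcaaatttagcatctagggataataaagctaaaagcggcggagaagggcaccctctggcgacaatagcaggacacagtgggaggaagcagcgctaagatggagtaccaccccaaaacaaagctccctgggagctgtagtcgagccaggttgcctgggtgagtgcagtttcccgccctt

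The other 22 tested antiviral effectors were not called. The most abundant were Ifitm3 (123 FPKM in DKO and 131 FPKM in Ctrl) and Ifitm2 (87.1 and 79.9 FPKM), membrane proteins that hinder the entry of viruses. Ifitm2 is less certain, since it shares 48.5% of its 50-base windows with other transcripts. Bst2, which tethers budding virions, was at 28.2 FPKM in DKO and 31.9 FPKM in Ctrl. Their q-values in the authors' deposited table were 0.776, 0.693 and 0.564. Ifi35 (15.4 and 15.7 FPKM) and Xaf1 (15.1 FPKM in both) were close to equal.

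Of the inducible effectors at a few FPKM, some leaned up and some down without a call. Isg15, the ubiquitin-like modifier, was at 5.14 FPKM in DKO and 5.69 FPKM in Ctrl, and Usp18, the protease that removes it, at 2.88 and 3.08 FPKM. Rsad2, which makes an antiviral nucleotide, was at 4.82 and 5.17 FPKM, and its chromosomal neighbour Cmpk2, a nucleotide kinase, at 3.39 and 3.68 FPKM. Isg20, an exonuclease, was at 4.94 and 4.44 FPKM. These genes differed by at most 1.11-fold in either direction.

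The oligoadenylate synthetase family, whose active enzymes switch on an RNase in infected cells, has 5 members here. Each had a higher value in DKO than in Ctrl, and none was called. Oas2 was at 7.14 FPKM in DKO and 6.57 FPKM in Ctrl, Oasl2 at 4.42 and 4.17 FPKM, Oas1a at 1.27 and 1.14 FPKM, and Oasl1 at 1.14 and 0.904 FPKM. Oas3 was at 0.136 and 0.0897 FPKM and was not tested. Oas1a shares 57.6% of its 50-base windows with Oas1g. The dynamin-like GTPases Mx2 (1.16 and 1.22 FPKM) and Mx1 (0.351 and 0.217 FPKM, not tested) were also low.

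The last 5 effectors were not called. Eif2ak2, the kinase that halts translation on double-stranded RNA, was at 9.69 FPKM in DKO and 9.22 FPKM in Ctrl, in a row that also names Gm6548. Parp14, an ADP-ribosyltransferase, was at 7.89 and 7.82 FPKM, and Ifitm1 at 6.18 and 5.49 FPKM. Rtp4 was at 6.12 FPKM in DKO and 6.71 FPKM in Ctrl, and Ifi44, which had the lowest ratio of the type I class (-0.23), at 2.05 and 2.40 FPKM. Over the 29 type I response members that were tested and not called, q-values in the authors' deposited table ran from 0.564 to 0.996.

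The sensors of foreign nucleic acid were not called. Ddx58 was at 5.19 FPKM in DKO and 4.99 FPKM in Ctrl, Ifih1 at 2.73 and 2.92 FPKM, and Dhx58, which modulates both, at 1.14 and 0.959 FPKM. Zbp1, a sensor of Z-form nucleic acid, was at 0.818 and 0.713 FPKM and was not tested. Ifih1 has an isoform of 5519 bases at 2.38 FPKM in DKO and 2.92 FPKM in Ctrl (q = 0.628, the authors' deposited table).

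The 4 transcription factors among the members were not called. Irf1, which is itself induced by interferon gamma, was at 16.9 FPKM in DKO and 15.7 FPKM in Ctrl (q = 0.765, the authors' deposited table). Irf9 was at 10.7 and 10.9 FPKM and Stat2 at 7.39 and 7.23 FPKM. Irf7, the factor that amplifies type I interferon, was at 6.28 FPKM in DKO and 6.67 FPKM in Ctrl. Their log2 ratios lay between -0.09 and 0.11.

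At the isoform level, 4 of 48 tested isoforms of members were called, those of Ifit2, Gbp7, Iigp1 and Irgm2, where 3.02% of all tested isoforms were called in either direction, 1.12% lower and 1.9% higher. Gbp4 and Tgtp2 were called as genes with no isoform called, and no isoform of the called Tgtp2 row was tested. The Gbp4 isoform of 4475 bases was at 4.37 FPKM in DKO and 4.45 FPKM in Ctrl (q = 0.994, the authors' deposited table). The Gbp4 isoform of 4302 bases was at 1.12 FPKM in DKO and 3.16 FPKM in Ctrl (q = 0.647, the authors' deposited table). The third, of 4538 bases, was listed at 2.05e-04 and 0.736 FPKM and was not tested. As listed, most of the difference in the Gbp4 total lay in the less abundant isoforms. Reads common to several transcripts are shared out by Cuffdiff's model, so single isoforms are less certain than gene totals.

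Summed over isoforms that share a start site, 5 GTPases were called lower and 1 type I response member higher, where 1.99% of all tested start site groups were lower and 2.95% higher. Gbp4 was among them, at 5.49 FPKM in DKO and 8.35 FPKM in Ctrl. Over coding sequences, 4 GTPases were lower and 1 type I response member higher, with 1.66% and 2.98% of all tested coding sequences called in those directions. With a fold of at least 1.3 required as well, the gene table kept 5 lower GTPases and 1 higher type I response member, against 1.71% and 3.6% of all tested genes.

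Irgm1 and the transcription factors also had isoforms that leaned both ways, none of them called. The Irgm1 isoform of 2008 bases was at 10.02 FPKM in DKO and 13.2 FPKM in Ctrl, and that of 2227 bases at 3.81 and 3.12 FPKM. The Irf9 isoform of 2343 bases was at 5.15 FPKM in DKO and 6.88 FPKM in Ctrl, while that of 2545 bases was at 1.93 and 0.320 FPKM. The Irf7 isoform of 1859 bases was at 3.11 FPKM in DKO and 4.50 FPKM in Ctrl, and that of 1763 bases at 2.34 and 0.987 FPKM.

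**Figure D3:**
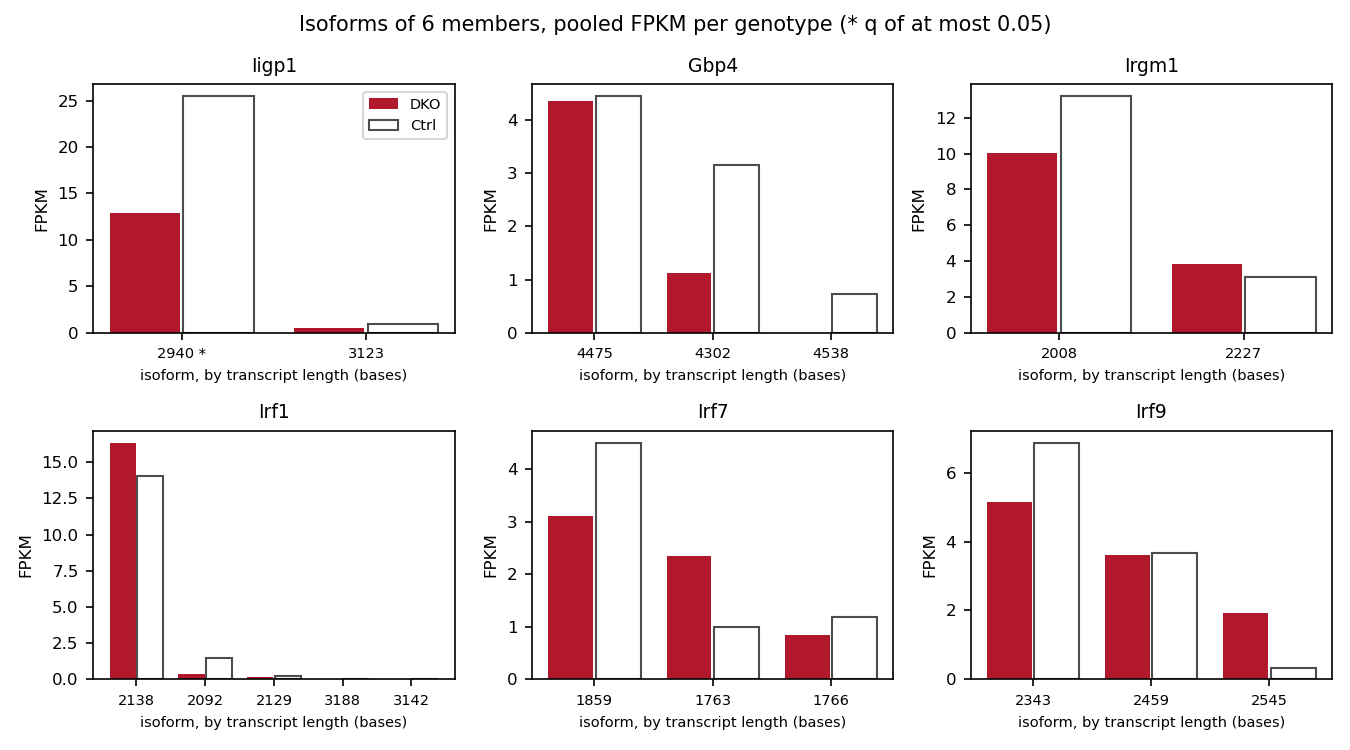
FPKM of each isoform of 6 members, named by transcript length, with DKO filled and left of Ctrl, open. Bars show the authors' pooled values, and the axes start at 0. The Iigp1 isoform of 2940 bases drops to 12.9 in DKO against 25.5 in Ctrl, while in Gbp4 the first isoform is level and the second differs.

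Interferon transcripts were at or near 0 in these ventricles. Of 21 ligand genes looked up, 19 were listed, none was tested, and 15 were at 0 in both genotypes. Ifng was at 0.0404 FPKM in DKO and listed at 0 in Ctrl, and Ifnb1 at 0.0353 FPKM in DKO and listed at 0 in Ctrl. Ifna7 was listed at 0 in DKO and at 0.0618 FPKM in Ctrl, and Ifnz was listed at 0 in DKO and at 0.0183 FPKM in Ctrl.

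No interferon receptor chain was called. Ifngr1 was at 33.8 FPKM in DKO and 31.1 FPKM in Ctrl, Ifngr2 at 106 and 118 FPKM, Ifnar1 at 7.05 and 6.63 FPKM and Ifnar2 at 26.1 and 26.6 FPKM. Il10rb, at 109 and 116 FPKM, was also not called. Of 15 tested genes of this list, 1 was called, Ptpn6, a phosphatase of blood cells. It was higher, at 3.69 FPKM in DKO and 2.18 FPKM in Ctrl. Beside this list and those below, 4.3% of all tested genes were called higher and 3.06% lower. Of 6 tested interferon regulatory factors and their binding partners outside the membership, Irf5 (3.27 and 1.56 FPKM) and Irf8 (3.21 and 2.20 FPKM), factors of myeloid cells, were higher, while the most abundant, Irf2bp2 (18.0 and 18.3 FPKM) and Irf3 (16.1 and 15.9 FPKM), were not called. Of 16 tested genes that lead to interferon production, Unc93b1, which carries Toll-like receptors to endosomes, was higher, at 13.5 and 10.1 FPKM, and the adaptor Mavs, at 43.1 and 45.3 FPKM, was not called.

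Of 44 tested interferon-stimulated genes outside the membership, 1 was called higher, Ifi205, and 2 were called lower, where 4.3% of all tested genes were higher and 3.06% lower. Their median log2 ratio was 0.025. The higher one was at 7.95 FPKM in DKO and 5.82 FPKM in Ctrl. The lower ones were Cd274, the checkpoint ligand that interferon gamma induces, at 4.05 FPKM in DKO and 5.69 FPKM in Ctrl, and Nt5c3, a nucleotidase, at 55.1 and 69.8 FPKM. The authors' deposited table gives them q-values of 0.00517 and 0.00407. The most abundant, Ly6a (134 and 143 FPKM) and Ly6e (97.5 and 103 FPKM), were not called.

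Antigen presentation genes under interferon control had a median log2 ratio of 0.0061 over 14 tested. Psme1, a proteasome activator, was lower at 126 FPKM in DKO and 173 FPKM in Ctrl, while its partner Psme2 was at 55.0 and 54.9 FPKM. Ciita, the switch for class II genes that interferon gamma induces, was higher at 1.06 FPKM in DKO and 0.661 FPKM in Ctrl. B2m (305 and 267 FPKM) and the class I gene H2-D1 (99.6 and 87.9 FPKM) were not called. None of 6 tested relatives of the GTPases outside the membership was called, the most abundant being Atl2 (19.3 FPKM in DKO and 21.8 FPKM in Ctrl) and Irgq (10.7 and 9.36 FPKM). The others tested were Atl1, Atl3, F830016B08Rik and Gm12250. A further 12 rows of this list were not tested. Gbp8, Gbp10, Gbp11, Gvin1 and Gm12185 were among these, each under 1 FPKM in both genotypes. The IRG relative Gm12250, chosen after its values were seen, was at 1.10 FPKM in DKO and 1.57 FPKM in Ctrl (q = 0.157, the authors' deposited table). For F830016B08Rik, near Iigp1, the DKO value was the larger, 3.02 against 2.74 FPKM (q = 0.789, the authors' deposited table). Of the 6 tested relatives, 3 had a log2 ratio below 0, and their median was 0.055.

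**Figure D4:**
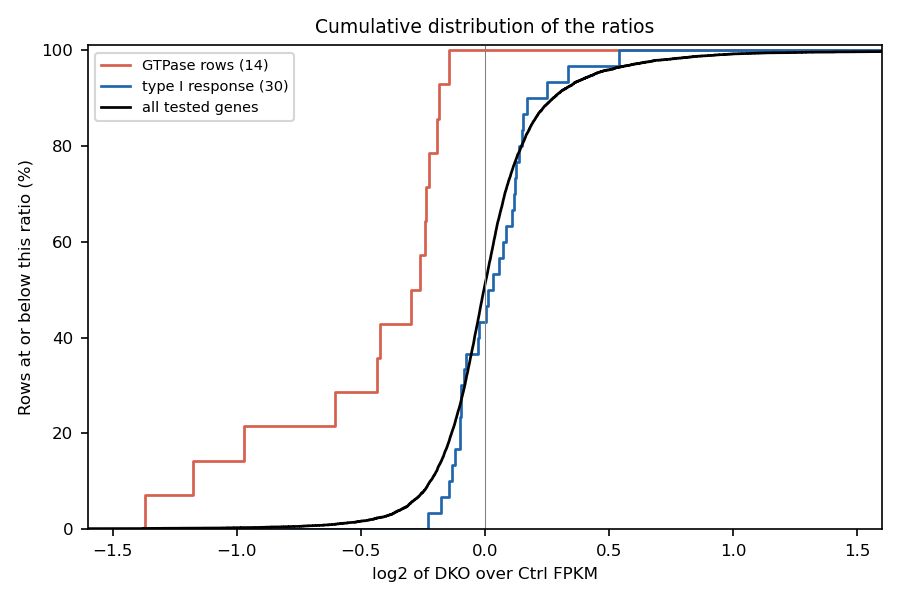
Share of rows at or below each log2 ratio of DKO over Ctrl FPKM, for the 14 GTPase rows, the 30 type I response members and all tested genes. The GTPase curve reaches its top before 0, while 13 of the 30 type I response members lie below 0, against 51.1% of all tested genes.

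In bulk tissue, fewer cells that express a gene and less RNA per cell cannot be told apart. Macrophage markers were called higher in DKO for 13 of 15 genes (median log2 ratio 0.64), and their summed level was 431 FPKM in DKO and 278 FPKM in Ctrl. Lyz2 was the largest part of that sum, at 189 FPKM in DKO and 107 FPKM in Ctrl. Fibroblast markers were called higher for 7 of 9 (median 0.43), and mural and smooth muscle markers for 1 of 9 (median 0.14). Over all tested genes, 4.3% were called higher. Endothelial markers had no call among 16 (median -0.05), with summed levels of 2994 FPKM in DKO and 3248 FPKM in Ctrl. Most of that sum came from Cd36 (1173 and 1358 FPKM) and Fabp4 (1079 and 1111 FPKM). Cardiomyocyte markers had no call among 10 (median -0.20), with 10 of 10 ratios below 0. T cell markers (summed 3.21 and 2.49 FPKM over 9 genes) and NK cell markers (2.35 and 0.907 FPKM over 9 genes), of the cells that secrete interferon gamma, were listed at low levels. Of these, Cuffdiff tested only Cd28, which was not called. No listed marker of any of these types was at 0 in both genotypes. Among B cell (1 tested), plasmacytoid dendritic cell (2 tested, Bst2 among them) and neutrophil markers (2 tested) none was called. The part of any of these cells in the GTPase values was not tested.

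**Figure D5:**
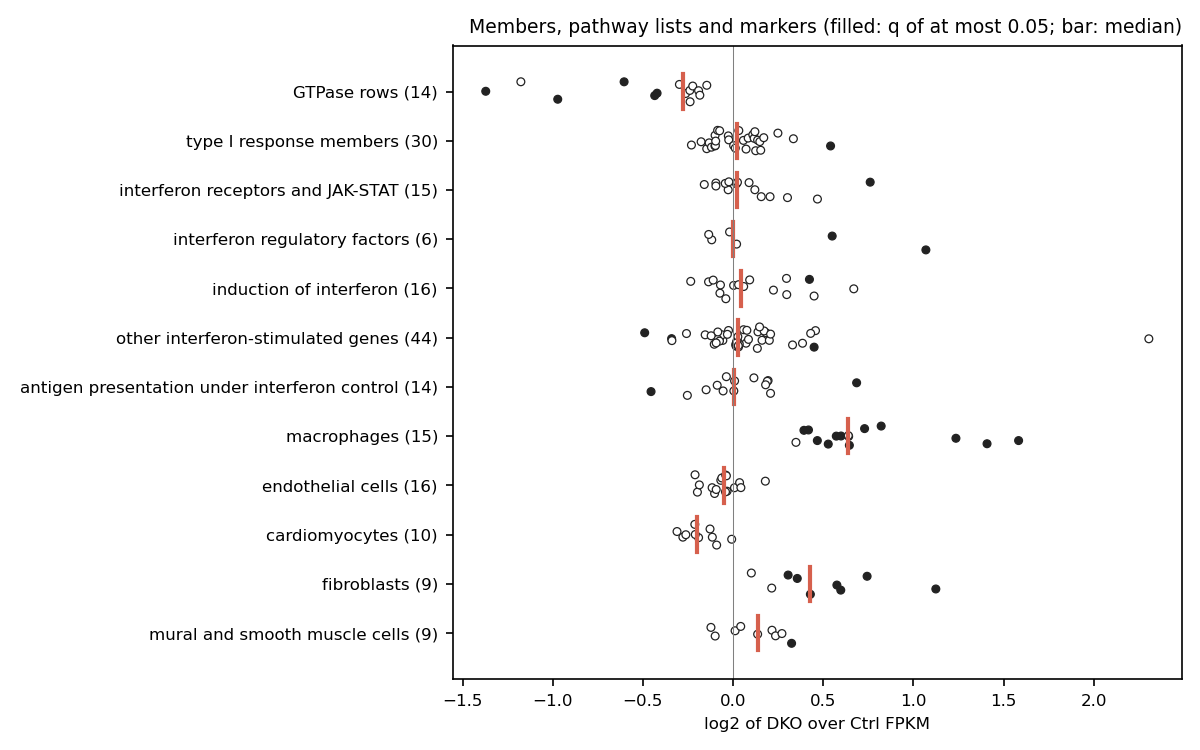
Log2 ratio of each tested gene, one point per gene, for the members and the lists named on the axis, filled where called, with a bar at the median. The GTPase median lies at -0.28, the cardiomyocyte median at -0.20 and the macrophage median at 0.64; the T, NK and B cell, plasmacytoid dendritic cell, neutrophil, ligand and GTPase relative lists are not drawn.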

How the data were processed

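RNA of 8 ventricle samples was measured with single-end Illumina sequencing, per the labels' protocols. The authors used TopHat2 2.0.9, Cufflinks 2.1.1 and Cuffdiff 2.1.1 with mm9, as the submitters' processing notes list them. The sources used here name neither annotation nor settings. In all, 5 deposited tables cover genes, isoforms, coding sequences, start site groups and 642 selected genes. They hold 1 FPKM per genotype, per the file headers. Replicates are pooled and the depth is unknown, so no interval, floor or test over animals was computed. The p-values and q-values are the authors', per the file headers, and the smallest p-value, 5e-05, is shared by 385 called genes. The deposited log2 fold change is Ctrl over DKO, per the file headers, and log2 ratios were recomputed as DKO over Ctrl. Medians leave out ratios with a 0 in 1 group. Listed start positions were raised by 1 to count from 1, since end minus listed start equalled the transcript length in 2419 loci of 1 isoform.

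The members, gene lists and the rule for naming genes were chosen with earlier results of these data known. All members are named, and from each pathway list the called genes and the most abundant ones; others were chosen after their values were seen. Promoters came from RefSeq (GRCm38.p6) and transcripts from GENCODE M21, whose coordinates were not joined to mm9. Counting and motif search were tested on simulated data. Alternatives covered thresholds, a pseudocount of 1, an FPKM minimum of 1, rescaling and the tables of other features. The software was Python 3.11.15, pandas 2.3.3, numpy 2.4.6, biopython 1.88 and matplotlib 3.10.9.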

Additional observations from a re-analysis of the deposited data

How the results depend on the processing

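The 5 called GTPases became 3 in the isoform table, where Gbp4 and Tgtp2 dropped out, and stayed between 4 and 5 under the other settings, all of them lower in DKO. The type I class kept 1 call, higher in DKO, under every setting. Its median log2 was 0.026 after rescaling, 0.057 over all members above 0 in both groups, 0.012 without rows that name several genes and 0.034 without the transcription factors. The GTPase median was -0.25 with log2(FPKM + 1), -0.26 at a mean FPKM of at least 1, -0.30 without rows that name several genes and -0.25 without Tgtp2, an alternative chosen after seeing the data. Of 44 member rows, 1 changed direction with its main isoform, Ifi47 at 0.017. Gbp4 and the called row of Tgtp2 lost their calls there, at -0.03 and -1.41, with no test of that Tgtp2 isoform. None changed direction with log2(FPKM + 1) or with rescaling, which removed a median of -0.00418. No paired analysis was possible because the deposited values are pooled by genotype. For the same reason no animal could be left out.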
